A study of Mus musculus with 12 samples.

Results

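The genes described here are 9 genes of natural killer T (NKT) cell selection and of innate-like T cells: Zbtb16, Il2rb, Klrb1c, Tbx21, Cd160, Cd1d1, Slamf1, Slamf6 and Sh2d1a. They were chosen by name for what they are known to do, with earlier results of these data known, and each was found by symbol among the 55335 gene rows of both count tables. RNA-seq and ribosome footprinting, which sequences the mRNA fragments that ribosomes protect from nuclease, were performed on thymocytes of mice aged 6 weeks, with no sort named in the labels. The groups were wild type (WT) and miR-181a/b-1 KO, a knockout of a pair of neighbouring microRNA genes, with 3 libraries of each genotype in each assay and 12 in all. The labels give no strain, no sex and no driver for the deletion, and all cells were placed in cycloheximide, which stalls ribosomes, when they were isolated.

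NKT cells are T cells with an almost invariant T cell receptor that recognises lipids held by CD1d. In the thymus they are selected by other thymocytes, which show CD1d and engage receptors of the SLAM family through the adaptor SAP, and they then switch on the transcription factor PLZF, which gives them an innate, rapidly responding character. NKT cells are a small minority of thymocytes, and loss of miR-181a/b-1 is known to deplete them in mice. In bulk libraries such as these, fewer cells of a type and less RNA per cell cannot be told apart.

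The sequences of the deleted microRNAs and, where listed, of the promoters of called members were read from RefSeq tables on GRCm38.p6. The mature microRNAs are shown because they define the knockout, with bases 2 to 8, the seed that pairs with targets, in capitals. Both carry the same seed. They lie on the forward strand at chr1:137966468-137966490 (miR-181a) and chr1:137966650-137966673 (miR-181b).
mmu-miR-181a-5p: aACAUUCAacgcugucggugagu
mmu-miR-181b-5p: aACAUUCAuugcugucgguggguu

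Promoters, here 250 bases before to 50 after the annotated start, were listed for 5 of the 9 members. Zbtb16, Il2rb, Cd1d1 and Sh2d1a had no entry. Those of Klrb1c (reverse strand, chr6:128788592-128788891) and Slamf1 (forward strand, chr1:171766882-171767181) are shown because footprints of these genes were called lower in KO. Capitals mark matches on either strand to 3 motifs: GGTGTGA for T-box factors such as T-bet, TGTGGT for Runx factors and CAGNTG for E-box factors. The motifs do not overlap one another in these windows.
Klrb1c promoter: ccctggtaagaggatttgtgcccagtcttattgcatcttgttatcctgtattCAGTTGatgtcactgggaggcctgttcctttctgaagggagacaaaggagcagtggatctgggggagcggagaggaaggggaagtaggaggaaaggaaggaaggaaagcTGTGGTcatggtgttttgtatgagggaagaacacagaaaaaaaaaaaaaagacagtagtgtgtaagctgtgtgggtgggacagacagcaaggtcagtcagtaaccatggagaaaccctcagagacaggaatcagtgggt
Slamf1 promoter: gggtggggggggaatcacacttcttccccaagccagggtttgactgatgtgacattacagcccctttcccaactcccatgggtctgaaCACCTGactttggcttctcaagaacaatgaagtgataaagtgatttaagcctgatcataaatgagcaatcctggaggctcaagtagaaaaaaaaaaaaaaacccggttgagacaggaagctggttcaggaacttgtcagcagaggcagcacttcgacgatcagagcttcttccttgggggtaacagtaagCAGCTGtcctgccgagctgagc
The Klrb1c window holds an E-box match at base 53 and a Runx match at base 162, and the Slamf1 window holds E-box matches at bases 89 and 279. Of 32851 promoters of this length in the table, 51.4% hold the E-box letters, 16.8% the Runx letters and 3.98% the T-box letters. Among the 5 members with an entry, the T-box letters were found only in Cd160, in 1 of its 2 listed promoters.

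Reads in genes numbered 4479182 to 8180286 in RNA-seq libraries and 4069968 to 17859770 in footprint libraries, the fewest in KO replicate 3. The labels were checked with Mir181a-1, a gene of the deleted pair. In footprint libraries its level in CPM, the usual count scaled to the reads in genes of a library, was 148 ± 16.8 in WT against 0.828 ± 0.317 in KO (SD, n = 3), a log2 difference of -7.47 (edgeR FDR 2.24e-05). In RNA-seq it did not fall, at 2.81 ± 1.62 CPM in the libraries labelled WT against 3.27 ± 1.59 CPM where labelled KO (SD, n = 3, edgeR FDR 0.756). This gene therefore checks no RNA-seq label, and every direction in RNA-seq below is that of the libraries labelled WT and KO. All 13 thymocyte markers listed were detected in both assays. Their summed level in footprints was 26800 to 27600 CPM in WT and 26600 to 27400 CPM in KO. At an edgeR FDR under 0.05, 3 of the 13 were called higher and 2 lower in footprints, and 0 in RNA-seq. Over all genes tested in footprints, 9.25% were called higher and 8.34% lower.

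Lower values in KO were found mainly among the members that mark NKT and NK-like T cells. Zbtb16 and Il2rb were called lower in both assays, at an FDR under 0.05 in the edgeR quasi-likelihood test adjusted over all genes tested, and Klrb1c and Slamf1 were called lower in footprints. No member was called higher in either assay, where 3.48% of all genes tested were called higher in RNA-seq and 9.25% in footprints. In RNA-seq 7 of the 9 members passed the filter on low counts and 2 were called, both lower, where 6.91% of all 13652 genes tested were called and 3.43% were called lower. In footprints all 9 passed and 4 were called, all lower, where 17.6% of 13509 genes were called and 8.34% were called lower. Among these 4, Klrb1c passed the filter only through the WT group, so its direction was fixed by the filter. Called lower in both assays were 2 members and 1.75% of the 11854 genes tested in both, and called higher in both were 0 members and 2.15% of these genes.

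The median log2 fold change of the tested members was -0.08 in RNA-seq and -0.21 in footprints, beside -0.000534 and -0.00904 over all genes tested. When replicate numbers entered the fit as a block, 0 members were called in RNA-seq (0.806% of all genes) and 1 in footprints, Il2rb (3.02% of all genes). The deposited counts had been adjusted by the authors, and in them the libraries of equal number in WT and KO deviated in opposite directions from their group means. The spread within a group may therefore not be the spread between mice, and the blocked value is given where it ends a call.

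**Figure D1:**
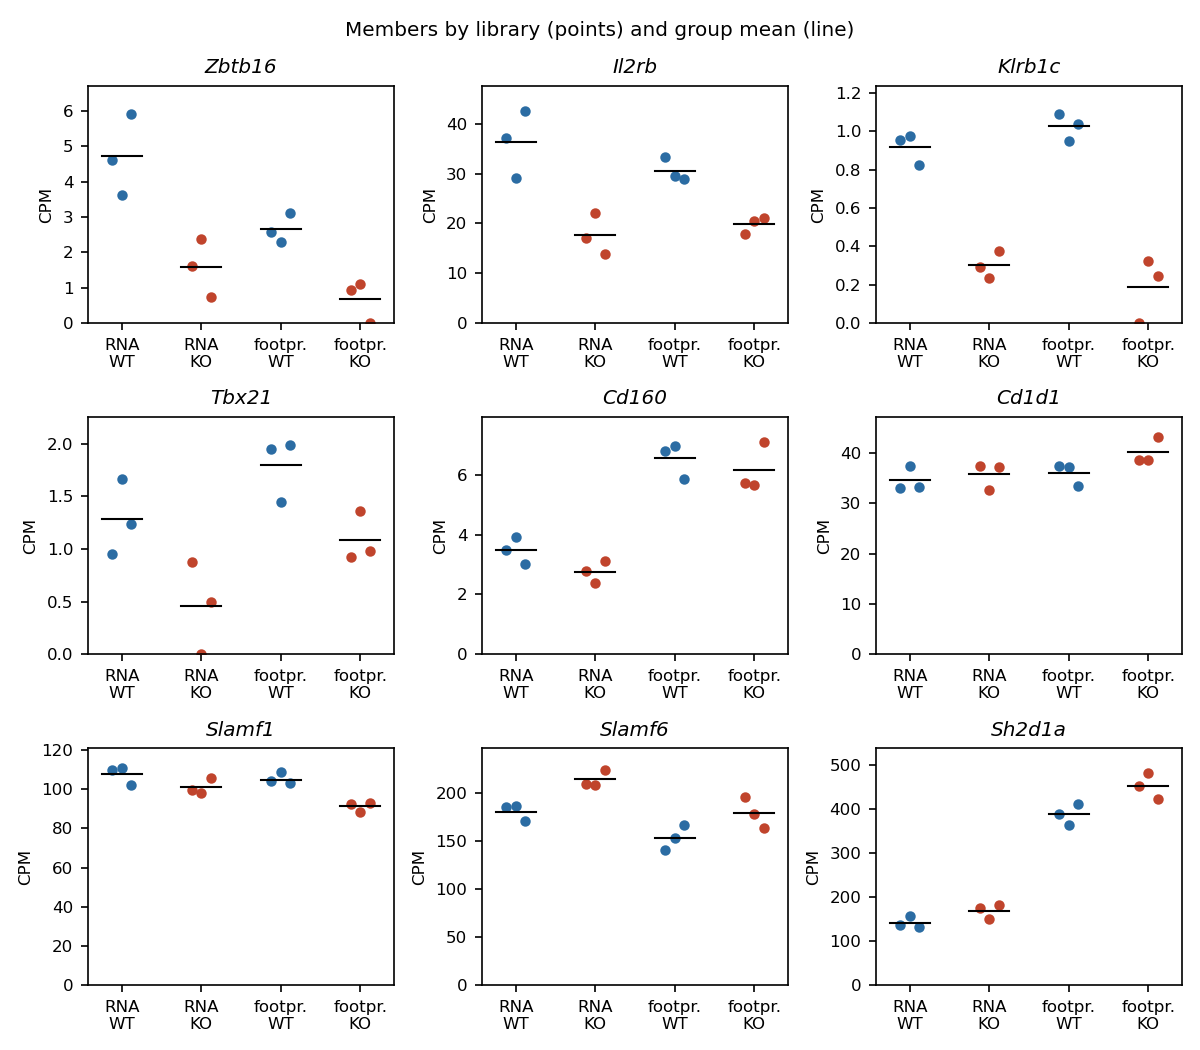
Level of each of the 9 members in CPM (vertical axes, from 0) in each of the 12 libraries (points, blue for WT and red for KO), with the mean of each group of 3 as a line. Zbtb16, Il2rb, Klrb1c and Tbx21 sit lower in all 3 KO libraries than in any WT library in both assays, while Cd160 and Cd1d1 in RNA-seq overlap.

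Zbtb16 (ENSMUSG00000066687.5) encodes PLZF, the transcription factor that directs the innate-like program of NKT cells. In RNA-seq it had 4.61, 3.63 and 5.92 CPM in the 3 libraries labelled WT and 1.61, 2.37 and 0.748 CPM in those labelled KO, from 98 and 27 reads in all. The groups did not overlap, and the lowest WT library was higher than the highest KO library. All 3 WT and 2 of the 3 KO libraries reached the 1.45 CPM of the filter. The mean went from 4.72 ± 1.15 CPM to 1.58 ± 0.81 CPM (SD, n = 3), a change of -1.71 on the log2 scale (SE 0.37, edgeR FDR 0.0443). In footprints it had 2.58, 2.29 and 3.13 CPM in WT and 0.928, 1.10 and 0 CPM in KO, from 119 and 27 reads.

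Footprints of Zbtb16 did not overlap between genotypes either, and KO replicate 3, the shallowest library, had 0 reads, which allows up to 0.736 CPM. The footprint change on the log2 scale was -1.55 (SE 0.38, edgeR FDR 0.0366). Both calls are at the edge of the threshold. The edgeR FDR was 0.152 in RNA-seq and 0.144 in footprints with the replicate block. Leaving out any of the 6 libraries ended the RNA-seq call (edgeR FDR 0.0593 to 0.119), and in footprints the call held only without KO replicate 3 (edgeR FDR 0.0221, against up to 0.0929 without another library). The fitted log2 fold change stayed between -2.03 and -1.31 in RNA-seq over these omissions. In the authors' deposited table Zbtb16 is marked as significantly down in both assays, with log2 fold changes of -0.577 in RNA-seq and -0.484 in footprints. DESeq2 as run here gave -1.67 and -1.69. How the authors estimated their fold changes was not examined, so the sizes may not be comparable.

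Il2rb (ENSMUSG00000068227.9) encodes CD122, the beta chain shared by the receptors for IL-15 and IL-2, which NKT and NK cells need to survive and mature. RNA-seq gave 37.2, 29.2 and 42.6 CPM in WT-labelled and 17.1, 22 and 13.8 CPM in KO-labelled libraries. Footprints gave 33.4, 29.6 and 28.9 CPM in WT and 17.8, 20.5 and 21.1 CPM in KO. The genotypes did not overlap in either assay. Il2rb had far more reads than Zbtb16, 752 and 321 in RNA-seq and 1417 and 593 in footprints.

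The level of Il2rb fell from 36.3 ± 6.75 to 17.7 ± 4.11 CPM (SD, n = 3) in RNA-seq, a change of -1.08 on the log2 scale (SE 0.20, edgeR FDR 0.0316). In footprints it fell from 30.6 ± 2.41 to 19.8 ± 1.75 CPM (SD, n = 3), a change of -0.65 on the log2 scale (SE 0.09, edgeR FDR 0.00598). The footprint call was the only one among the members that held under the replicate block (edgeR FDR 0.0383) and without each library in turn (edgeR FDR 0.0159 to 0.0267). The RNA-seq call was lost with the block (edgeR FDR 0.0562) and held only without WT replicate 2 or KO replicate 2 among the 6 omissions (edgeR FDR 0.0434 to 0.105). The authors' deposited table marks Il2rb as significantly down in both assays, with log2 fold changes of -0.801 and -0.551.

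Klrb1c (ENSMUSG00000030325.16), whose promoter is shown above, encodes NK1.1, the lectin-like receptor that marks mature NKT1 and NK cells in some mouse strains. In footprints it had 1.09, 0.951 and 1.04 CPM in WT and 0, 0.325 and 0.245 CPM in KO, from 47 and 6 reads. It was lower in every KO library than in any WT library. The mean went from 1.03 ± 0.0696 CPM to 0.19 ± 0.169 CPM (SD, n = 3), with a change of -2.31 on the log2 scale (SE 0.52, edgeR FDR 0.0289), which was -3.74 without KO replicate 2 and -1.69 without KO replicate 1. The gene passed the filter through the WT group, since no KO library reached its 0.76 CPM, so it had to differ between the groups to be tested.

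The Klrb1c call was lost with the replicate block (edgeR FDR 0.148) and without any library except KO replicate 1 or 2 (edgeR FDR 0.0322 to 0.0756). DESeq2 gave no adjusted p for it. The authors' deposited table lists neither Klrb1c nor Tbx21 in either assay. In RNA-seq Klrb1c was too low to be tested, with 0.954, 0.976 and 0.826 CPM in WT-labelled and 0.293, 0.237 and 0.374 CPM in KO-labelled libraries, from 19 and 6 reads. These values do not overlap either, and without a filter the log2 fold change was -1.48 (edgeR FDR 0.174). Klrb1c has close relatives in the Klrb1 family, and reads that align to several places were set apart in counting, so its counts are uncertain.

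Tbx21 (ENSMUSG00000001444.2) encodes T-bet, the transcription factor of NKT1 cells and of interferon-producing lymphocytes. Footprints gave 1.95, 1.45 and 1.99 CPM in WT and 0.928, 1.36 and 0.982 CPM in KO, from 81 and 35 reads. The groups did not overlap, but the log2 fold change of -0.61 (SE 0.23) did not pass the test (edgeR FDR 0.115). In RNA-seq Tbx21 was not tested, with 0.954, 1.67 and 1.24 CPM in WT-labelled and 0.878, 0 and 0.499 CPM in KO-labelled libraries, from 27 and 10 reads.

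Cd160 (ENSMUSG00000038304.14), a receptor of NK cells, NKT cells and some CD8 T cells that binds HVEM, overlapped between genotypes in both assays. It had 3.5, 3.91 and 3.03 CPM in WT-labelled and 2.78, 2.37 and 3.12 CPM in KO-labelled RNA-seq (log2 fold change -0.30, SE 0.16, edgeR FDR 0.502). Its footprints were at 6.81, 6.99 and 5.88 CPM in WT and 5.75, 5.65 and 7.12 CPM in KO (log2 fold change -0.16, SE 0.11, edgeR FDR 0.398). Of the tested members that mark innate-like cells, Cd160 had the smallest fitted change in each assay.

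**Figure D2:**
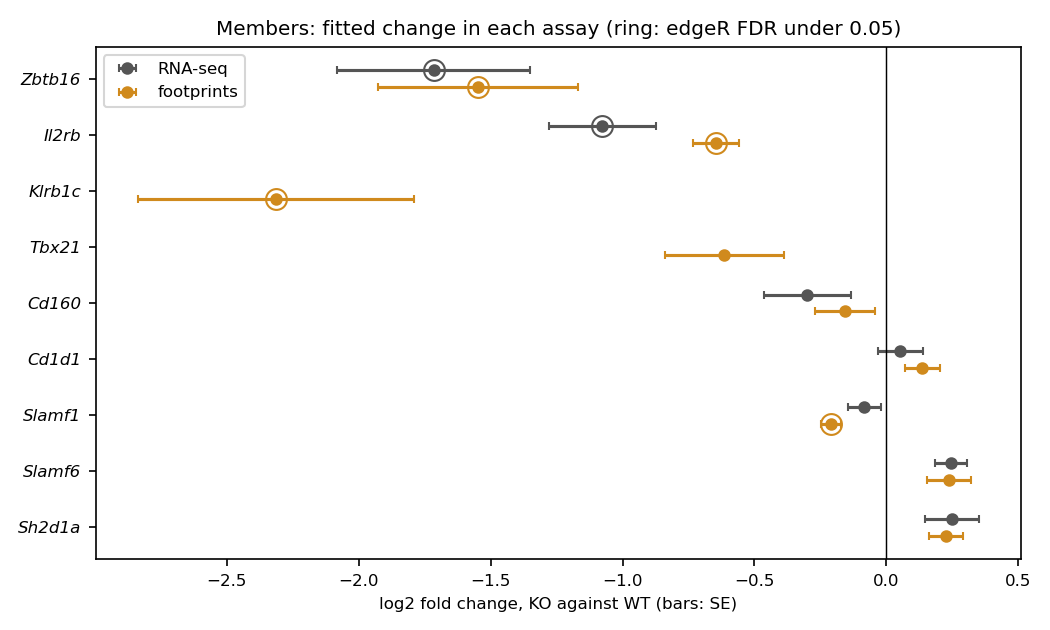
Fitted log2 fold change of KO against WT for each member (horizontal axis, bars are SE) in RNA-seq (grey) and footprints (orange), with rings on calls at an edgeR FDR under 0.05. Klrb1c and Tbx21 have no RNA-seq point because they did not pass the filter. Zbtb16 and Il2rb are ringed in both assays and lie left of 0, and Slamf6 and Sh2d1a lie right of 0 without a ring.

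The remaining 4 members act in the selection of NKT cells by other thymocytes. Cd1d1 (ENSMUSG00000028076.12) encodes the molecule that shows lipids to NKT cells. It had 33.1, 37.5 and 33.3 CPM in WT-labelled and 37.4, 32.7 and 37.2 CPM in KO-labelled RNA-seq, which overlap (log2 fold change 0.05, SE 0.09, edgeR FDR 0.758). Its footprints were at 37.4, 37.2 and 33.4 CPM in WT and 38.6, 38.7 and 43.2 CPM in KO. All 3 KO libraries were above all 3 WT libraries, yet the log2 fold change of 0.14 (SE 0.07) did not pass the test (edgeR FDR 0.213). Cd1d1 has a near copy, Cd1d2, next to it in the genome, and reads of both may have been lost from the counts.

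Slamf1 (ENSMUSG00000015316.11) encodes CD150, a receptor that binds itself on neighbouring cells and signals through SAP in NKT selection. In RNA-seq it had 110, 111 and 102 CPM in WT-labelled and 99.5, 98.3 and 106 CPM in KO-labelled libraries, and the groups overlapped (log2 fold change -0.08, SE 0.06, edgeR FDR 0.465). In footprints it had 104, 109 and 103 CPM in WT and 92.7, 88.5 and 92.8 CPM in KO. The footprint groups did not overlap, and the mean fell from 105 ± 2.81 to 91.3 ± 2.46 CPM (SD, n = 3). The log2 fold change was -0.21 (SE 0.04, edgeR FDR 0.0156). This call was lost with the block (edgeR FDR 0.269) and with DESeq2 (adjusted p 0.0947). It was also lost without either KO replicate 1 or 2 or WT replicate 2 (up to edgeR FDR 0.0733). The authors' deposited table marks Slamf1 as not significant in both assays, as it does Cd160, Cd1d1 and Slamf6.

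Slamf6 (ENSMUSG00000015314.10) encodes Ly108, the SLAM receptor that acts beside CD150 in NKT selection. It had 185, 186 and 171 CPM in WT-labelled and 209, 208 and 224 CPM in KO-labelled RNA-seq, with no overlap (log2 fold change 0.25, SE 0.06, edgeR FDR 0.0671). Its footprints, at 140, 153 and 166 CPM in WT and 195, 178 and 163 CPM in KO, overlapped (log2 fold change 0.24, SE 0.08, edgeR FDR 0.103). Neither value passed the test.

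Sh2d1a (ENSMUSG00000005696.11) encodes SAP, the adaptor that links SLAM receptors to the kinase Fyn. RNA-seq gave 137, 157 and 131 CPM in WT-labelled and 174, 149 and 181 CPM in KO-labelled libraries, which overlap (log2 fold change 0.25, SE 0.10, edgeR FDR 0.202). Footprints gave 388, 363 and 412 CPM in WT and 453, 481 and 423 CPM in KO. The footprint groups did not overlap, and the means were 388 ± 24.1 CPM for WT against 452 ± 29 CPM for KO (SD, n = 3, edgeR FDR 0.0606). DESeq2 called this rise in footprints (adjusted p 0.0373), and the authors' deposited table also marks it as significantly up, with a log2 fold change of 0.215.

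Of the 7 members tested in RNA-seq, 2 (Zbtb16 and Il2rb) were lower in all 3 KO than in all 3 WT libraries, as were 15.4% of all genes tested. Klrb1c and Tbx21, which were not tested there, did not overlap either. In footprints 5 of the 9 members (these 4 and Slamf1) were lower without overlap, as were 19.6% of all genes tested. With no KO library at the filter, Klrb1c could be tested only with all 3 WT libraries above it. Its lack of overlap in footprints thus followed from the filter. In the other direction, Slamf6 was higher without overlap in RNA-seq, and Cd1d1 and Sh2d1a in footprints. That held for 15.5% and 18.5% of all genes tested.

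No member was called for a change of footprints beyond that of RNA, which edgeR tested as an interaction term between assay and genotype in 1 fit of the 12 libraries, where 0.211% of 11854 genes were called. The 7 members tested had 0 calls at an unadjusted p under 0.05, and DESeq2 also called 0. Il2rb had the lowest edgeR FDR, 0.408, with a footprint change that was 0.44 (SE 0.22) above its RNA change on the log2 scale. For Zbtb16 the difference was 0.18 (SE 0.61), so this test was wide for it. Slamf1 had a difference of -0.13 (SE 0.08, edgeR FDR 0.514).

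Genes of the NKT pathway were read from 8 lists by role. The lists include the members, so the counts below take in the members again. The lists were written with earlier results of these data known, so their counts are descriptions. Of 115 list genes tested in both assays, 14 were called in both, each time in the same direction, 11 in RNA-seq alone, 19 in footprints alone and 71 in neither. Beside these counts and those of each list stand the shares over all genes given above, 6.91% called in RNA-seq, 17.6% in footprints, and 1.75% lower and 2.15% higher in both. Counts of a list with few calls, such as those of CD1d presentation, are near these shares.

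**Figure D3:**
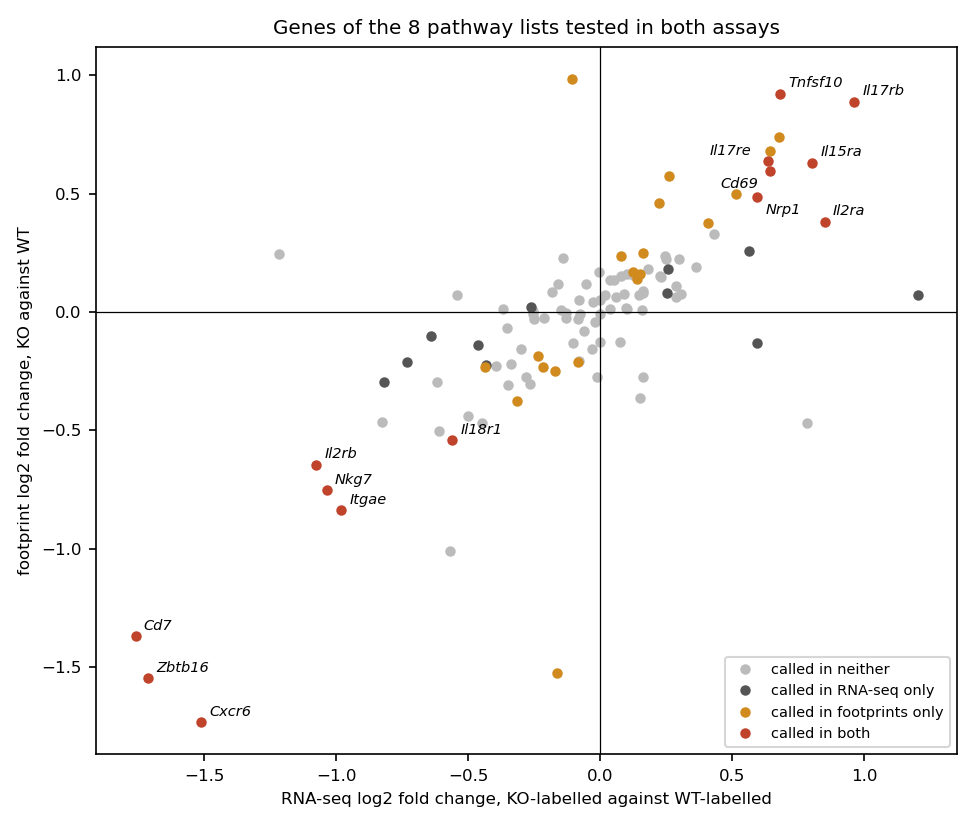
Log2 fold change in footprints (vertical axis) against that in RNA-seq (horizontal axis) for the 115 genes of the 8 pathway lists tested in both assays, coloured by the assay in which edgeR called them at an FDR under 0.05. The 14 genes called in both (red, named) lie in the lower left, among them Cd7, Zbtb16, Cxcr6, Itgae, Nkg7 and Il2rb, or in the upper right, among them Tnfsf10, Il17rb, Il15ra and Il2ra.

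Among NKT lineage transcription factors, 1 of 22 tested genes was called higher and 2 lower in RNA-seq, and 4 of 24 higher and 2 lower in footprints. Besides Zbtb16, the named genes were Egr3 and Tcf7. Egr3, a factor induced by the T cell receptor that acts upstream of PLZF, had 3.15, 2.63 and 2.56 CPM in WT and 4.92, 5.85 and 6.14 CPM in KO footprints (log2 fold change 0.98, SE 0.13, edgeR FDR 0.00585, or 0.0766 with the block). In RNA-seq Egr3 overlapped, at 11 ± 0.774 and 10.2 ± 0.768 CPM (SD, n = 3, edgeR FDR 0.681). Tcf7, which encodes TCF-1, a factor of early T cell fate, was called lower in RNA-seq (log2 fold change -0.26, edgeR FDR 0.0477, or 0.563 with the block). Its footprints were at 2730 ± 242 CPM for WT against 2770 ± 239 CPM for KO (SD, n = 3).

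Of the SLAM receptors, SAP and Fyn signalling genes, 0 of 12 tested were called higher and 1 lower in RNA-seq, and 2 of 14 higher and 1 lower in footprints. Slamf1 and Slamf6 lie in a cluster of SLAM family genes on the RefSeq annotation, in the order Cd244a, Ly9, Slamf7, Cd48, Slamf1, Cd84 and Slamf6. Cd84, a self-binding SLAM receptor that lies between the Slamf1 and Slamf6 genes, had 106, 105 and 105 CPM in WT and 137, 137 and 136 CPM in KO footprints (log2 fold change 0.37, SE 0.03, edgeR FDR 0.000979). It held under the block (edgeR FDR 0.0438) and in all 6 omissions. Footprints of Slamf1 and Cd84, neighbours in this order, were thus called in opposite directions. Slamf7, a SLAM receptor of cytotoxic lymphocytes and myeloid cells, was called lower in RNA-seq (log2 fold change -0.73, SE 0.13, edgeR FDR 0.0252, or 0.431 with the block). Nfkb1, a subunit of NF-kB, was called higher in footprints (log2 fold change 0.25, edgeR FDR 0.029, or 0.204 with the block).

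**Figure D4:**
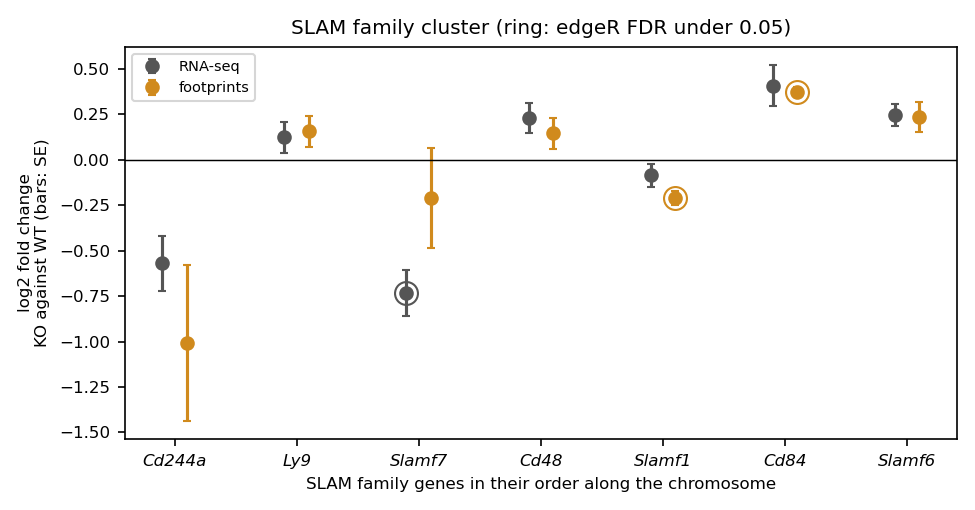
Fitted log2 fold change of KO against WT (vertical axis, bars are SE) for the 7 SLAM family genes in their order along the chromosome (horizontal axis), in RNA-seq (grey) and footprints (orange), with rings on calls at an edgeR FDR under 0.05. Slamf1 is ringed below 0 and Cd84 above 0 in footprints, and Slamf7 below 0 in RNA-seq.

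In the IL-15 and IL-2 receptor pathway, 2 of 13 tested genes were called higher and 1 lower in RNA-seq, and 3 higher and 1 lower of 13 in footprints. The gene called lower was Il2rb in both assays. The alpha chains of both receptors were called in the other direction. Il2ra, which encodes CD25, the alpha chain of the IL-2 receptor, had 56, 55.9 and 47.4 CPM in WT-labelled and 91, 90.7 and 105 CPM in KO-labelled RNA-seq (log2 fold change 0.85, SE 0.10, edgeR FDR 0.00675, or 0.0198 with the block). Its footprints went from 92.8 ± 1.63 to 121 ± 2.47 CPM (SD, n = 3, a log2 change of 0.38, edgeR FDR 0.00159, or 0.0446 with the block). Il15ra, the IL-15 receptor alpha chain, had 6.44 ± 0.936 and 11.1 ± 1.31 CPM (SD, n = 3) in RNA-seq (log2 fold change 0.80, edgeR FDR 0.0302) and a log2 fold change of 0.63 in footprints (edgeR FDR 0.0196). Both Il15ra calls were lost with the block (edgeR FDR 0.243 and 0.324).

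Of 29 NK receptors and cytotoxic effectors, 10 were tested in RNA-seq, with 3 called higher and 1 lower, and 16 in footprints, with 1 called higher and 5 lower. Among these 5, Klrb1c, Klra1 and Gzmb reached the filter in all 3 WT libraries. No KO library of Klrb1c or Gzmb reached it, and only 1 of Klra1 did, so the direction of this count depends on the filter. Nkg7, a membrane protein of cytotoxic granules, had 6.36, 6.69 and 8.68 CPM in WT-labelled and 4.24, 4.03 and 2.62 CPM in KO-labelled RNA-seq (log2 fold change -1.04, SE 0.22, edgeR FDR 0.0442). Its footprints went from 25.5 ± 4.7 to 14.3 ± 3.35 CPM (SD, n = 3, a log2 change of -0.75, edgeR FDR 0.0354). Both Nkg7 calls were lost with the block (edgeR FDR 0.246 and 0.0708). Klra1, a Ly49 receptor of NK and some T cells, had 1.6, 1.9 and 1.52 CPM in WT and 0.557, 0.26 and 0.982 CPM in KO footprints (log2 fold change -1.84, SE 0.34, edgeR FDR 0.0158, or 0.134 with the block). Klra1 passed the filter mainly through the WT group and belongs to a family of near copies, so its counts are uncertain.

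The 2 NK receptor list genes called higher that the naming rule took were Tnfsf10 and Klrb1f. Tnfsf10, which encodes the death ligand TRAIL, rose from 15.3 ± 0.479 to 29.3 ± 0.938 CPM in footprints (SD, n = 3, a log2 change of 0.92, edgeR FDR 0.000325, or 0.00374 with the block). In RNA-seq its log2 fold change was 0.68 (edgeR FDR 0.0088, or 0.11 with the block), and it stayed called without each library in turn. Klrb1f, a relative of Klrb1c, was called higher in RNA-seq on 21 and 45 reads (log2 fold change 1.20, edgeR FDR 0.0267, or 0.328 with the block) and overlapped in footprints. Klrb1f passed the RNA-seq filter through the KO group, since no WT-labelled library reached its 1.45 CPM, so it had to differ to be tested.

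Of 17 genes of lipid antigen presentation by CD1d, all tested, 1 was called higher and 1 lower in RNA-seq and 2 higher and 2 lower in footprints, and 0 under the block in either assay. Cd1d2, the near copy of Cd1d1, was called higher in RNA-seq on 86 and 120 reads (log2 fold change 0.59, edgeR FDR 0.0481) and Hexa, a lysosomal hexosaminidase subunit, lower (log2 fold change -0.46, edgeR FDR 0.0287). Psap, the precursor of the saposins that load lipids on CD1d, rose from 2530 ± 29 to 2990 ± 25.2 CPM in footprints (SD, n = 3, a log2 change of 0.24, edgeR FDR 0.00595, or 0.188 with the block). Ctss, the protease cathepsin S of antigen-presenting cells, fell from 97.1 ± 5.77 to 74.1 ± 4.74 CPM in footprints (SD, n = 3, a log2 change of -0.37, edgeR FDR 0.011, or 0.0698 with the block).

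The segments of the invariant receptor gave little. Traj18, the joining segment of the NKT alpha chain, which other thymocytes use too, had 16.1 ± 3.46 CPM in WT-labelled and 11.3 ± 2.26 CPM in KO-labelled RNA-seq (SD, n = 3, a log2 change of -0.50, edgeR FDR 0.207), and the groups overlapped. In footprints it had 1.89 ± 0.233 and 1.44 ± 0.252 CPM (SD, n = 3, a log2 change of -0.44, edgeR FDR 0.229). Trav11 and Trav11d, the variable segments that join it, had 0 reads in all 12 libraries. By counting error alone this allows levels of at most 0.145 and 0.157 CPM in WT-labelled and KO-labelled RNA-seq, and of at most 0.0654 and 0.0992 CPM in WT and KO footprints. Reads shared between near-identical segments were set apart in counting, so these limits hold for counted reads. Trbv29, a beta segment of NKT receptors, was called higher in footprints (log2 fold change 0.16, edgeR FDR 0.0387). That call did not hold under the block (edgeR FDR 0.416) or without any library.

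Genes of the NKT1, NKT2 and NKT17 subsets held more named genes than any other list. Of 20 tested, 4 were called higher and 4 lower in RNA-seq, and of 22 tested, 5 higher and 6 lower in footprints. Under the block 1 higher and 0 lower calls were left in RNA-seq and 4 higher and 2 lower in footprints. Cxcr6, a chemokine receptor of NKT1 and resident T cells, had 8.64, 7.78 and 8.34 CPM in WT and 2.23, 2.66 and 2.45 CPM in KO footprints (log2 fold change -1.73, SE 0.11, edgeR FDR 0.000407, or 0.0034 with the block). In RNA-seq it had 3.5, 4.18 and 3.58 CPM in WT-labelled and 1.61, 0.71 and 1.37 CPM in KO-labelled libraries (log2 fold change -1.51, edgeR FDR 0.0175, or 0.144 with the block). Neither assay showed overlap, and in RNA-seq all 3 WT-labelled but only 1 KO-labelled library reached the filter.

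Itgae, which encodes the integrin CD103 of intraepithelial and some innate-like T cells, fell from 70.6 ± 3.01 to 39.1 ± 1.93 CPM in footprints (SD, n = 3, a log2 change of -0.84, edgeR FDR 0.000412, or 0.00153 with the block). In RNA-seq its log2 fold change was -0.98 (edgeR FDR 0.016, or 0.0616 with the block). Il1r1, the IL-1 receptor, was called lower in footprints (log2 fold change -1.53, edgeR FDR 0.00622, or 0.149 with the block) on 62 and 14 reads, and it passed the filter through the WT group. In RNA-seq Il1r1 overlapped (log2 fold change -0.16, edgeR FDR 0.749).

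Other subset genes were called higher in both assays. Il17rb, the IL-25 receptor chain found on NKT2 cells, had 32.5, 34.5 and 35.7 CPM in WT and 66.3, 62.4 and 59.9 CPM in KO footprints (log2 fold change 0.89, SE 0.06, edgeR FDR 0.000445, or 0.0015 with the block). In RNA-seq it rose from 54.9 ± 3.87 to 107 ± 7.38 CPM (SD, n = 3, a log2 change of 0.96, edgeR FDR 0.00282, or 0.00742 with the block). Il17re, an IL-17 receptor chain, had log2 fold changes of 0.64 in both assays (edgeR FDR 0.0418 and 0.0121, with the block 0.288 and 0.17). Nrp1, neuropilin 1, rose from 131 ± 7.22 to 183 ± 10.5 CPM in footprints (SD, n = 3, edgeR FDR 0.00449, or 0.0234 with the block), with a log2 fold change of 0.59 in RNA-seq (edgeR FDR 0.0151, or 0.103 with the block). Cd69, the early activation marker, had log2 fold changes of 0.64 in RNA-seq (edgeR FDR 0.0315, or 0.104 with the block) and 0.60 in footprints (edgeR FDR 0.00309, or 0.0138 with the block). Many of these genes are expressed by other thymocytes as well, so the list does not measure NKT subsets alone.

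In the list of MAIT, gamma-delta and innate CD8 genes, 1 of 15 tested was called higher and 3 lower in RNA-seq, and 1 of 16 higher and 2 lower in footprints. Cd7, a surface glycoprotein of T and NK cells, had 31.5, 33.3 and 31.1 CPM in WT and 12.7, 11.9 and 13 CPM in KO footprints (log2 fold change -1.37, SE 0.06, edgeR FDR 0.000185, or 0.000433 with the block). In RNA-seq it had 6.99, 6.42 and 8.13 CPM in WT-labelled and 2.34, 2.6 and 1.62 CPM in KO-labelled libraries (log2 fold change -1.76, edgeR FDR 0.00663, or 0.0329 with the block). No other gene of the 8 lists was called lower under the block in both assays. Il18r1, the IL-18 receptor, was called lower in both assays, with log2 fold changes of -0.56 and -0.54 (edgeR FDR 0.0351 and 0.00787, with the block 0.518 and 0.171). Klf2, a factor of T cell exit from the thymus, was called lower in RNA-seq (log2 fold change -0.82, edgeR FDR 0.0223, or 0.141 with the block).

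Of the named members and list genes, 20 were called in RNA-seq and 24 in footprints. The replicate block left 3 of the 20 (Il2ra, Il17rb and Cd7) and 10 of the 24 (Il2rb, Cd84, Il2ra, Tnfsf10, Cxcr6, Itgae, Il17rb, Nrp1, Cd69 and Cd7). Leaving out each of the 6 libraries in turn left 4 of the 20 called throughout (Il2ra, Tnfsf10, Il17rb and Cd7) and 15 of the 24. Zbtb16, Klrb1c and Slamf1 were in neither group in either assay, and Il2rb was in both in footprints only.

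Genes whose pattern was most like that of a member were ranked by Pearson's r of log2 CPM, centred within each assay, over the 12 libraries. For Zbtb16, the highest of 8100 genes were Dnajb6 (r = 0.916), Sh3bp5l (0.908) and Fntb (0.907). For Cd1d1 the highest of 8099 genes were Ivd (0.953), Mrpl57 (0.947) and Nsmce3 (0.946). These values describe libraries that share genotype, depth and the authors' adjustment, and they carry no test.

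The summed levels of markers of other cells differed between the genotypes as well. The 7 NK cell or ILC markers summed to 20.2 to 23.7 CPM in WT-labelled and 27.8 to 34.8 CPM in KO-labelled RNA-seq, and to 128 to 171 and 149 to 200 CPM in footprints, where Klra8 was at 0 in all 6 libraries. Of these markers, 1 was tested in RNA-seq and called higher (Gzma, the granzyme A gene, edgeR FDR 0.0424, or 0.271 with the block), and 1 of 3 tested in footprints was called lower (Klrb1c itself). Nearly all of this sum is Gzma, at 17.8 to 22.2 and 26.8 to 33.4 CPM in RNA-seq and 125 to 168 and 147 to 198 CPM in footprints. Other NK markers went both ways without being tested. Eomes, a T-box factor of NK cells, was lower in KO without overlap, at 0.582 ± 0.0472 and 0.181 ± 0.158 CPM in RNA-seq and 0.673 ± 0.0496 and 0.323 ± 0.122 CPM in footprints (SD, n = 3). Ncr1, which encodes NKp46, was higher without overlap in KO footprints, at 0.522 ± 0.126 and 0.873 ± 0.31 CPM (SD, n = 3). The 8 dendritic cell markers summed to 144 to 166 CPM in WT and 99.9 to 121 CPM in KO footprints, with 3 of 7 tested called lower, and to 42.1 to 61 and 24.3 to 39.3 CPM in RNA-seq. The 7 granulocyte markers summed to 183 to 275 CPM in WT and 302 to 470 CPM in KO footprints, with 5 called higher, and to 22.9 to 36.5 and 43.9 to 72.7 CPM in RNA-seq. The 8 macrophage or monocyte markers summed to 356 to 410 CPM in WT and 304 to 355 CPM in KO footprints, with 2 called lower, and overlapped in RNA-seq. In RNA-seq B cell markers were higher in KO-labelled libraries, at 288 to 333 against 238 to 274 CPM, with 0 of 7 called. Higher there too was the sum of thymic epithelium markers, at 90.7 to 108 against 74 to 88.4 CPM. Of 6 tested, 1 was called higher and 1 lower, and their median log2 fold change was -0.23, opposite to the sum. Stroma or endothelium markers also had a higher sum, at 245 to 255 against 215 to 220 CPM. Of 5 tested, 2 were called higher, with a median log2 fold change of -0.06. Erythroid markers were lower, at 46.6 to 58.9 against 76.6 to 91.8 CPM, with 1 of 5 called lower. The sums of B cell, epithelium, stroma and erythroid markers overlapped in footprints. There 1 of 7 B cell, 1 of 7 epithelium and 2 of 7 stroma markers were called higher. Called lower were 1 of 7 epithelium and 1 of 5 erythroid markers. Under the block, 2 dendritic, 5 granulocyte, 1 macrophage and 1 B cell calls were left in footprints. None of these lists kept a call in RNA-seq. Over all genes tested, 8.34% were called lower and 9.25% higher in footprints, and 3.02% were called with the block. In RNA-seq 3.43% of all genes tested were called lower and 3.48% higher. The part of these cells in the values of Zbtb16, Il2rb, Klrb1c, Tbx21, Slamf7, Ctss, Klra1 and Cd160 was not tested.

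**Figure D5:**
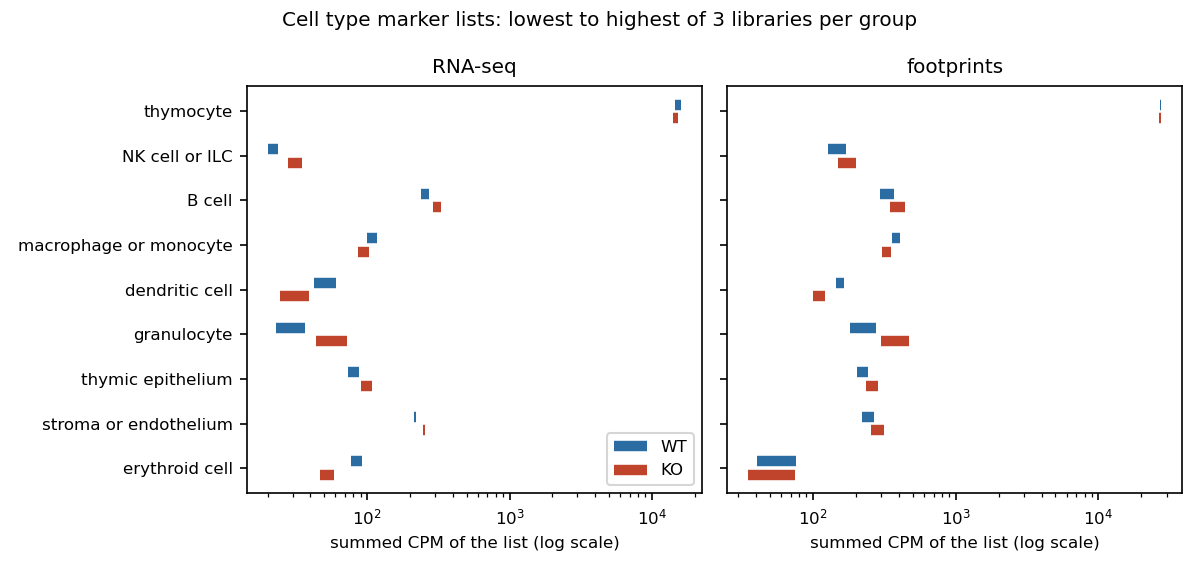
Summed CPM of each cell type marker list (horizontal axes, log scale), as a bar from the lowest to the highest of 3 libraries in WT (blue) and KO (red), for RNA-seq (left) and footprints (right). Dendritic cell markers are lower and granulocyte markers higher in KO without overlap in both assays, and thymocyte markers overlap.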

How the data were processed

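RNA-seq and ribosome footprint libraries of mouse thymocytes, 3 per genotype and assay, were grouped by genotype and assay as in their labels. The authors deposited counts of reads for each Ensembl gene, whole numbers that they call adjusted, without saying how in the labels or headers. The submitters' processing notes name FastQC, Bowtie2 2.5.1, STAR 2.7.10a, HTSeq 2.0.3 and DESeq2 1.40.2, and no genome build or annotation is given in the sources used here. From the authors' deposited comparison tables, log2 fold changes and calls are quoted as such, and their 12 per-library columns were not used. The 5 summary rows for reads outside genes, ambiguous reads and the like were left out, and 27% to 28.5% of counted RNA-seq reads and 72.3% to 73.1% of footprints lay in genes.

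Each assay was fitted with edgeR 4.0.16 in R 4.3.3 (TMM, filterByExpr with a minimum count of 10, quasi-likelihood test of KO against WT, Benjamini-Hochberg FDR under 0.05 over all genes tested). The interaction term of assay and genotype came from 1 fit of the 12 libraries. CPM values were computed here from the deposited counts over TMM-scaled totals. Limits for 0 reads were set at 3 counts and cover counting error only. The scripts were tested on simulated data that did not carry the authors' adjustment. Tried as alternatives were DESeq2 1.42.0, RLE size factors, an FDR under 0.1, no filter, a joint fit, a replicate block and the omission of each library. The labels do not say what a replicate number marks. The p-values measure the spread that the authors' adjustment left between these libraries, which may not be the spread between mice.

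The members and all gene lists were chosen with earlier results of these data known. Named were all members, the list genes called in both assays in the same direction, the 2 called genes with the largest fold change per list and assay, and the 3 genes most like Zbtb16 and Cd1d1 among genes whose average log2 CPM reached 3 (prior count of 2). Of 18 names in the MAIT list, 17 matched a symbol. Footprint levels per kilobase of coding sequence, which had been planned, and microRNA target sites were not analysed here.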

Additional observations from a re-analysis of the deposited data

Results flagged for a closer look

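Egr3, of the NKT lineage transcription factors, was the one gene named here whose KO effect differed between the assays in the test of the difference itself. Its change in footprints was 1.09 (SE 0.18) above its change in RNA-seq on the log2 scale (edgeR FDR 0.0294 over 11854 genes). Footprints were higher in all 3 KO libraries than in any WT library, on 129 and 168 reads, while RNA-seq overlapped on 228 and 195 reads. The call held with equal number and genotype taken as 1 mouse (edgeR FDR 0.0362) and did not hold with a block of replicate numbers inside each assay (edgeR FDR 0.998).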

How the results depend on the processing

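In RNA-seq 2 members were called, and RLE size factors, no filter on low counts, DESeq2 and a joint fit of 12 libraries also gave 2. The replicate block gave 0, and leaving out 1 library in turn gave 0 to 1. In footprints 4 were called, against 1 with the replicate block and 1 to 3 with 1 library left out (the fewest without WT replicate 2), and 3 with DESeq2, which called Sh2d1a, did not call Slamf1 and gave no adjusted p for Klrb1c. An FDR under 0.1 gave 3 and 5, adding Slamf6 in RNA-seq and Sh2d1a in footprints, both higher in KO. For the change beyond RNA, every alternative run gave 0. No named gene's fitted direction reversed where it had been called, and over all gene values and alternatives 190 lost a call, 7 gained one and 1173 stayed on their side of the threshold. Over all genes, RNA-seq calls numbered 943, against 532 with DESeq2, 110 with the replicate block, 1557 in the joint fit, 1742 at an FDR under 0.1 and 215 to 323 with 1 library left out. Footprint calls numbered 2376, against 1235 with DESeq2, 408 with the block and 1035 to 1554 with 1 library left out. Interaction calls numbered 25, against 44 with DESeq2, 2 with the block within each assay, 131 at an FDR under 0.1 and 6 to 24 with 1 library left out. The cause was not tested.

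Equal replicate numbers in WT and KO correlated at -0.991 to -0.98 in RNA-seq and -0.995 to -0.994 in footprints, as deviations from the group means over 5677 and 5308 genes. Different numbers correlated at 0.101 to 0.745 and 0.408 to 0.638. In the adjusted counts, WT and KO libraries of equal number are thus tied, while the main fit treats them as independent. Its FDR values may therefore be too low. The main fit left the numbers out because the labels do not say what they mark, and the block was an alternative. Depth limits Zbtb16, Klrb1c and Tbx21, which had at most 119 reads per group. It also limits Cd160 in RNA-seq, with 72 reads in WT-labelled and 54 in KO-labelled libraries.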

Other observations

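A few list genes outside the naming rule, chosen after their values were seen, were also called in footprints with the replicate block. Tox, a factor of T cell lineage development in the thymus, rose by a log2 fold change of 0.74 (edgeR FDR 0.00118, with the block 0.00222). Egr1, an early target of the T cell receptor, rose by 0.57 (edgeR FDR 0.0319, with the block 0.0491), Mcl1, a survival factor of the BCL2 family, by 0.46 (edgeR FDR 0.00591, with the block 0.0308) and Il12rb2, an IL-12 receptor chain, by 0.68 (edgeR FDR 0.00738, with the block 0.0327). Cxcr3, a chemokine receptor of NKT1 and effector T cells, was called lower in footprints (log2 fold change -0.77, edgeR FDR 0.00781), as was Gzmb, granzyme B (log2 fold change -1.37, edgeR FDR 0.0132), and both calls were lost with the block (edgeR FDR 0.222 and 0.178). Gzmb passed the filter through the WT group, since no KO library reached its 0.76 CPM.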
